A study of Mus musculus with 9 samples.

Results

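The 9 genes described here encode enzymes of glyceroneogenesis, and subunits and kinases of pyruvate dehydrogenase. They were taken by name, with earlier results of these data known. They are both phosphoenolpyruvate carboxykinases (Pck1 and Pck2), the 4 pyruvate dehydrogenase kinases (Pdk1 to Pdk4) and 3 subunits of the pyruvate dehydrogenase complex (Pdha1, Pdhb and Dlat). Each was read from 1 probe set of an Affymetrix mouse gene array, and all 9 of 9 passed the intensity filter, among 13335 genes tested of 19858 with a named probe set. The arrays measured RNA of 9 primary cultures of interscapular brown fat from male C57BL/6 mice aged 5 weeks, 3 cultures per group. The groups were LPA (1-oleoyl lysophosphatidic acid, 5 µM, subjects 7 to 9), HA155 (an inhibitor of autotaxin, the secreted enzyme that makes LPA, 2.5 µM, subjects 4 to 6) and control (the vehicle DMSO, subjects 1 to 3). All 3 groups were grown from a fraction enriched in precursor cells, in medium with newborn calf serum and with insulin stepped up to 200 nM. The labels give 9 days in vitro for all 9 cultures, and the submitters' design text says the compounds were given during differentiation. The length of exposure to the compounds is not settled by the labels. The sources used here do not say whether a culture came from 1 mouse or a pool.

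Pyruvate dehydrogenase joins glycolysis to the mitochondrion by turning pyruvate into acetyl-CoA. Its kinases phosphorylate the alpha subunit, encoded by Pdha1, and switch the complex off, while the phosphatases Pdp1 and Pdp2 switch it back on. Pck1 encodes the cytosolic and Pck2 the mitochondrial enzyme that makes phosphoenolpyruvate from oxaloacetate. In fat this step feeds glyceroneogenesis, the making of glycerol 3-phosphate from pyruvate or lactate, which allows fatty acids released by lipolysis to be re-esterified. In several tissues Pck1 and Pdk4 are known targets of nuclear receptors of the PPAR family, and insulin is known to lower both.

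The isozymes differ in the sequence before their starts, shown here for both carboxykinases and for the kinases Pdk3 and Pdk4, whose RNA moved in opposite directions with LPA. Each window runs from 250 bases before to 50 bases after a RefSeq start, 300 bases in all, and is written 5′ to 3′ on the gene's own strand in build GRCm38.p6. Capitals mark, on either strand, the core of the cAMP response element (TGACG), the CCAAT box, the TATA box (TATAAA), a nuclear receptor core motif (AGGTCA), the GC box (GGGCGG) and the E-box (CACGTG).
Pck1, chr2:173152823-173153122, plus strand: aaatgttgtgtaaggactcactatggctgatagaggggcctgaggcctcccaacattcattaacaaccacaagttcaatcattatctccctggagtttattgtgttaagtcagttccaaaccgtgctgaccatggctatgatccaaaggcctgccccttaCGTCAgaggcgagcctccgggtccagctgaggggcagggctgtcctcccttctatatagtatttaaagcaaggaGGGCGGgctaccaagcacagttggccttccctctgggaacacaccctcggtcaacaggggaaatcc
Pck2, chr14:55540016-55540315, plus strand: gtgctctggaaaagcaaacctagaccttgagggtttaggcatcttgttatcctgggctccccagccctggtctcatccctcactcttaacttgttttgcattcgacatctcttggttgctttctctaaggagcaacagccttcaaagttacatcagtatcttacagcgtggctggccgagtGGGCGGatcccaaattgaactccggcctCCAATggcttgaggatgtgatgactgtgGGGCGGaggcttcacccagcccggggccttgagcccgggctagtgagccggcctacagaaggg
Pdk4, chr6:5496229-5496528, minus strand: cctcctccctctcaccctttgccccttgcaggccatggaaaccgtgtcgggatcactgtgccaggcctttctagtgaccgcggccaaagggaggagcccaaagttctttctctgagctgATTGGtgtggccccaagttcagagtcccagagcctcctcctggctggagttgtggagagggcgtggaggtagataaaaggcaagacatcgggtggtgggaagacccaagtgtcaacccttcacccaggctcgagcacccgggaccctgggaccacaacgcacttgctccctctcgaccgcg
Pdk3, chrX:93832101-93832400, minus strand: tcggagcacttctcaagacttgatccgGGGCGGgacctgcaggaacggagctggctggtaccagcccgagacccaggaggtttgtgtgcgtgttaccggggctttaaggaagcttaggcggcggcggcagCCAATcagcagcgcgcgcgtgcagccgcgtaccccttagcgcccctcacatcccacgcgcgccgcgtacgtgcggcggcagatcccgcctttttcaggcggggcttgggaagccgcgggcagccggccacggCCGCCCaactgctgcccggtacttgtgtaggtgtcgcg

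The Pck1 window held the core of the cAMP response element once, starting at -90 and read on the opposite strand, where Pck2, Pdk3 and Pdk4 had no match. That motif stood in 5 of the 11 windows listed for the 9 genes, those of Pck1, Pdha1, Pdhb and Dlat and 1 of Pdk2, and in 20.8% of 32851 RefSeq windows of the same length. The Pdk4 window held 1 CCAAT box, on the opposite strand from -131. Pdk3 and Pck2 each held 1 on their own strand, from -120 and from -41, and Pck1 had none. CCAAT stood in 5 of the 11 windows and in 37.4% of all windows. GGGCGG was found once in Pck1, 2 times each in Pck2 and Pdk3 and not in Pdk4. It stood in 6 of the 11 windows, against 35.7% of all windows. TATAAA and AGGTCA matched in 0 of the 11 windows, against 13.6% and 16.3% of all windows, and CACGTG in 1 of them, of Pdk2, against 7.2%. GC content was 52.0% for Pck1, 55.0% for Pck2, 60.7% for Pdk4 and 68.0% for Pdk3. No motif of one window overlapped another in these 4. A match is a description of the letters and says nothing of binding.

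Over all tested genes the LPA arrays stood apart from the other 6. Of these genes 12.2% rose and 10.8% fell with LPA, and 0.607% rose and 0.427% fell with HA155 (limma adjusted p below 0.05). On the first principal component, which took 66.7% of the variance, LPA arrays lay at 19.6 to 28.7, HA155 arrays at -15.5 to -11.3 and control arrays at -10.3 to -7.3. Of 13 tested markers of fat cells in general 13 fell with LPA and 2 rose with HA155, Cidec by 0.64 (limma adjusted p = 0.000756) and Plin4 by 0.34 (limma adjusted p = 0.0446). Their summed intensity was 25670 to 26790 with LPA, 47920 to 50190 with HA155 and 46390 to 48490 in control. Of 6 preadipocyte markers 4 rose with LPA and 1, Dlk1, fell with HA155, by 0.82 (limma adjusted p = 0.000609), with sums of 9132 to 9808 with LPA, 5515 to 6301 with HA155 and 6744 to 7190 in control. Of 10 brown fat markers 4 (Ucp1, Cidea, Dio2 and Elovl3) had a mean over all arrays below the intensity filter. Ucp1, Dio2 and Elovl3 were under the filter level of 5.59 in the mean of every group. Cidea averaged 4.75 ± 0.05 with LPA and 6.39 ± 0.21 with HA155, against 4.92 ± 0.22 in control (log2, SD, n = 3 each), and in limma's fit without the filter it rose by 1.48 with HA155 (adjusted p = 0.00108). Of the other 6 brown markers 3 fell with LPA and 2 rose with HA155. Those that rose were Cox7a1, by 1.125 (limma adjusted p = 8.96e-06), and Cox8b, by 1.01 (limma adjusted p = 0.000609). The remaining 4 did not pass with HA155: Ppara measured 0.41, Ppargc1a 0.17, Prdm16 -0.03 and Ebf2 -0.13. The summed intensity of all 10 was 1011 to 1114 with LPA, 2580 to 2721 with HA155 and 1684 to 1789 in control. Of 10 skeletal muscle markers 5 rose with LPA and 1 with HA155, with sums of 1624 to 1826 with LPA, 1244 to 1344 with HA155 and 1218 to 1278 in control. Of the macrophage markers 4 of 8 and of the endothelial markers 3 of 6 passed the filter, and of these 1 endothelial marker rose with LPA. In these bulk RNAs fewer fat cells and less RNA of these genes per fat cell cannot be told apart. Cidec, Plin4, Dlk1, Cidea, Cox7a1 and Cox8b are named here because of their values, not by rule. The liver markers Alb and Ttr, set beside the carboxykinases because liver and kidney are rich in Pck1, lay below the filter, and of 4 liver and kidney markers the 1 tested, Apoa2, measured -0.06 with LPA.

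With LPA, 7 of the 9 genes fell, 1 rose and 1 did not pass, where 23% of all genes tested passed in either direction (12.2% higher and 10.8% lower). The genes that fell were Pck1, 3 of the 4 kinases and all 3 subunits, and the 1 that rose was the kinase Pdk3. The median log2 difference of the 9 was -0.71, against 0.01 over all genes tested. In all 9 genes the LPA and control arrays did not overlap, as in 33.1% of all genes. With HA155, 2 of the 9 rose, Pck1 and Pdk4, none fell and 7 did not pass, where 1.03% of all genes passed (0.607% higher and 0.427% lower). The HA155 arrays lay above all control arrays in 5 of the 9 (Pck1, Pdk2, Pdk4, Pdhb and Dlat), as in 8.87% of all genes, and below them in 0 of the 9, as in 7.9% of all genes. The median with HA155 was 0.18 for the 9 and 0.00 for all genes. Both comparisons share the control arrays. Because the 9 genes were chosen with earlier results of these data known, the shares over all genes describe the set and do not test it. A gene passed at an adjusted p below 0.05, from limma's moderated test over all 13335 genes with Benjamini-Hochberg adjustment, and all differences are on the log2 scale of the deposited intensity.

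**Figure D1:**
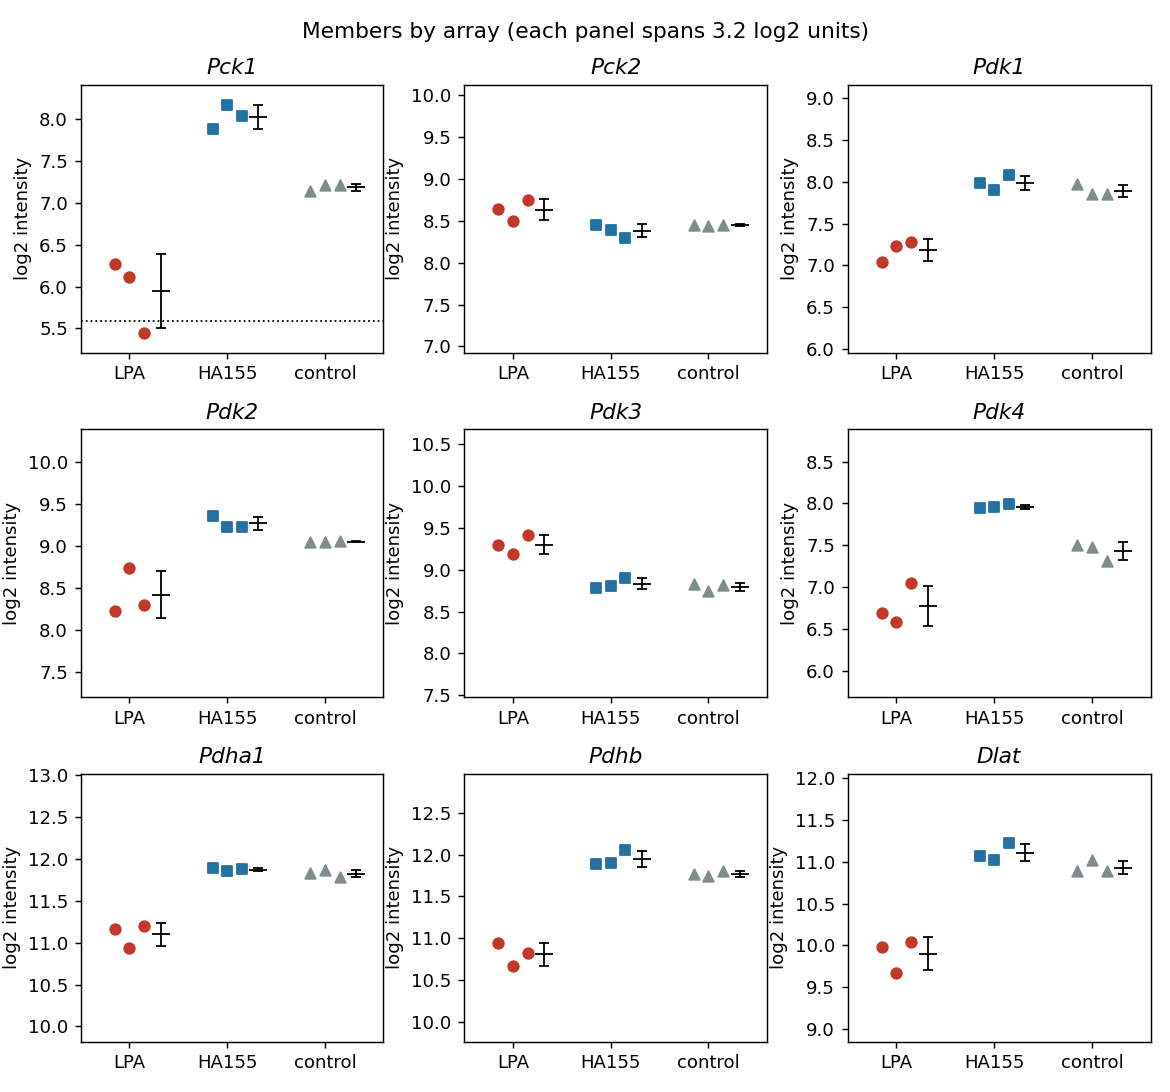
Log2 intensity of the 9 genes (1 panel each) in every array, with circles for LPA, squares for HA155 and triangles for control, and the mean ± SD (n = 3) beside each group. Every panel spans the same log2 range, and the dotted line in the Pck1 panel is the intensity filter at 5.59. The LPA arrays lie below the control arrays in 7 panels and above them in those of Pck2 and Pdk3.

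Pck1, the cytosolic carboxykinase, had the widest range of the 9. Its intensity was 77.3, 69.4 and 43.7 in LPA arrays 7, 8 and 9, and 235.7, 288.1 and 262.0 in HA155 arrays 4, 5 and 6, against 140.6, 147.9 and 147.9 in control arrays 1, 2 and 3. The 3 groups did not overlap, with HA155 highest and LPA lowest. Pck1 fell by 1.24 with LPA (SE 0.17, 95% confidence interval -1.61 to -0.86, adjusted p = 0.000324), a change in level of -57.6%. LPA array 9 lay under the filter level of 48.2, near background, and without it the difference was -0.99. With HA155, Pck1 rose by 0.84 (SE 0.17, interval 0.47 to 1.22, adjusted p = 0.045), a level 79.5% higher than in control.

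Pck2, the mitochondrial carboxykinase, stayed in a narrow range. Its intensity was 399.2, 363.1 and 431.7 in the LPA arrays and 350.9, 336.6 and 314.5 in the HA155 arrays, against 350.9, 348.2 and 350.9 in control. The LPA arrays were all above control, and the HA155 and control arrays overlapped. The difference was 0.18 for LPA against control (interval 0.02 to 0.34, adjusted p = 0.0978) and -0.07 for HA155 against control (interval -0.23 to 0.09, adjusted p = 0.934), and neither passed. Without LPA array 8 it was 0.25 for LPA against control and passed (adjusted p = 0.0194). Between LPA and HA155 it was 0.25 (adjusted p = 0.024), a call lost in 6 of 17 other settings: without HA155 array 5 or 6 or LPA array 7 or 9 (adjusted p up to 0.111), with only these groups in the fit (0.0582) and with median centring (0.0522).

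The 2 carboxykinases were also set against each other within each array. The log2 ratio of Pck1 to Pck2 differed by -1.42 with LPA (SD 0.54 with LPA and 0.05 in control) and by 0.91 with HA155 (SD 0.19 with HA155 and 0.05 in control), relative to control. Neither pair of groups overlapped. With 3 arrays against 3 the two-sided exact permutation p was 0.1, the smallest this design can give (0.129 adjusted over the 18 ratio comparisons made).

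The 4 kinases did not move alike with LPA. Pdk1, a kinase known to be induced in hypoxia, had intensities of 131.4, 150.8 and 155.2 in the LPA arrays and 253.2, 239.7 and 269.9 in the HA155 arrays, against 250.3, 230.9 and 230.9 in control. The LPA arrays lay clear of the other 6, and the HA155 and control arrays overlapped. Pdk1 fell by 0.71 with LPA (SE 0.08, adjusted p = 6.72e-05) and measured 0.10 with HA155 (interval -0.07 to 0.27, adjusted p = 0.885).

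Pdk2, the most widely expressed kinase in mammalian tissues, had intensities of 300.0, 428.1 and 314.0 in the LPA arrays and 657.5, 599.1 and 598.8 in the HA155 arrays, against 530.3, 531.5 and 534.3 in control. LPA array 8 was the highest of its group and still below all control arrays, and all 3 HA155 arrays were above them. Pdk2 fell by 0.63 with LPA (SE 0.11, adjusted p = 0.00187). The difference of 0.22 with HA155 did not pass (interval -0.03 to 0.46, adjusted p = 0.724).

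Pdk3, an isozyme known to be little inhibited by pyruvate, was the kinase that rose. Its intensity was 627.9, 583.9 and 682.4 in the LPA arrays and 440.6, 448.2 and 479.4 in the HA155 arrays, against 455.3, 428.2 and 452.5 in control. All 3 LPA arrays were above the other 6, which overlapped. Pdk3 rose by 0.50 with LPA (SE 0.07, interval 0.35 to 0.65, adjusted p = 0.000344), and it was also higher with LPA than with HA155, by 0.47 (adjusted p = 0.00046). With HA155 it measured 0.03 against control (interval -0.12 to 0.19, adjusted p = 0.978).

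Pdk4, the isozyme induced by fasting in muscle and heart, differed in both comparisons. Its intensity was 103.6, 95.7 and 131.9 in the LPA arrays and 245.4, 248.0 and 253.8 in the HA155 arrays, against 181.3, 178.5 and 158.7 in control. The groups stood in the same order as for Pck1, with HA155 highest, LPA lowest and no overlap. Pdk4 fell by 0.66 with LPA (SE 0.11, adjusted p = 0.00089), a change in level of -36.6%, and rose by 0.53 with HA155 (SE 0.11, interval 0.30 to 0.76, adjusted p = 0.0429), a level 44.4% higher.

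Within arrays, the log2 ratio of Pdk3 to Pdk1 differed by 1.21 with LPA, that of Pdk3 to Pdk2 by 1.13 and that of Pdk4 to Pdk3 by -1.16 relative to control, with no overlap between LPA and control arrays in any of them. The ratios of Pdk4 to Pdk1 and to Pdk2 overlapped between these groups, with changes of 0.05 and -0.02. With HA155 the log2 ratio of Pdk4 differed by 0.43 to Pdk1, by 0.31 to Pdk2 and by 0.50 to Pdk3, again with no overlap with control. The exact permutation p was 0.1, the smallest possible, for each of the non-overlapping ratios (0.129 adjusted over 18), and 0.7 and 1 for the 2 that overlapped.

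The 3 subunits of the complex fell together with LPA. Pdha1, the alpha subunit that the kinases phosphorylate, had intensities of 2290, 1967 and 2354 in the LPA arrays and 3806, 3703 and 3758 in the HA155 arrays, against 3635, 3729 and 3542 in control. The LPA arrays were all below the other 6, which overlapped. Pdha1 fell by 0.73 with LPA (SE 0.07, adjusted p = 3.16e-05) and measured 0.05 with HA155 (interval -0.11 to 0.20, adjusted p = 0.961).

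Pdhb, the beta subunit of the dehydrogenase, had intensities of 1970, 1628 and 1809 in the LPA arrays and 3804, 3822 and 4268 in the HA155 arrays, against 3474, 3418 and 3584 in control. It was lower in every LPA array and higher in every HA155 array than in any control array. Pdhb fell by 0.96 with LPA (SE 0.08, adjusted p = 9.07e-06), the smallest p of the 9 in that comparison. Its difference of 0.18 with HA155 had an interval of 0.01 to 0.35 and an unadjusted limma p of 0.0398, and did not pass over all genes (adjusted p = 0.577).

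Dlat, the acetyltransferase that forms the core of the complex, had intensities of 1015, 816.3 and 1050 in the LPA arrays and 2157, 2087 and 2396 in the HA155 arrays, against 1896, 2070 and 1896 in control. These 3 groups did not overlap either. Dlat fell by 1.03 with LPA (SE 0.10, adjusted p = 2.20e-05), a change in level of -51.1%. With HA155 the difference was 0.18 (interval -0.03 to 0.39, adjusted p = 0.742).

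Set directly against each other, LPA and HA155 differed in all 9 genes, where 26.1% of all genes passed (13.7% higher and 12.4% lower). The LPA and HA155 arrays did not overlap in any of the 9, as in 38.7% of all genes. The difference of Pck1 was -2.08 (SE 0.17, adjusted p = 5.74e-06), a level changed by -76.4%. Dlat followed at -1.21, Pdk4 at -1.19 and Pdhb at -1.14, then Pdk2 at -0.85, Pdk1 at -0.80 and Pdha1 at -0.77. Pck2 and Pdk3 were the 2 that were higher with LPA.

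**Figure D2:**
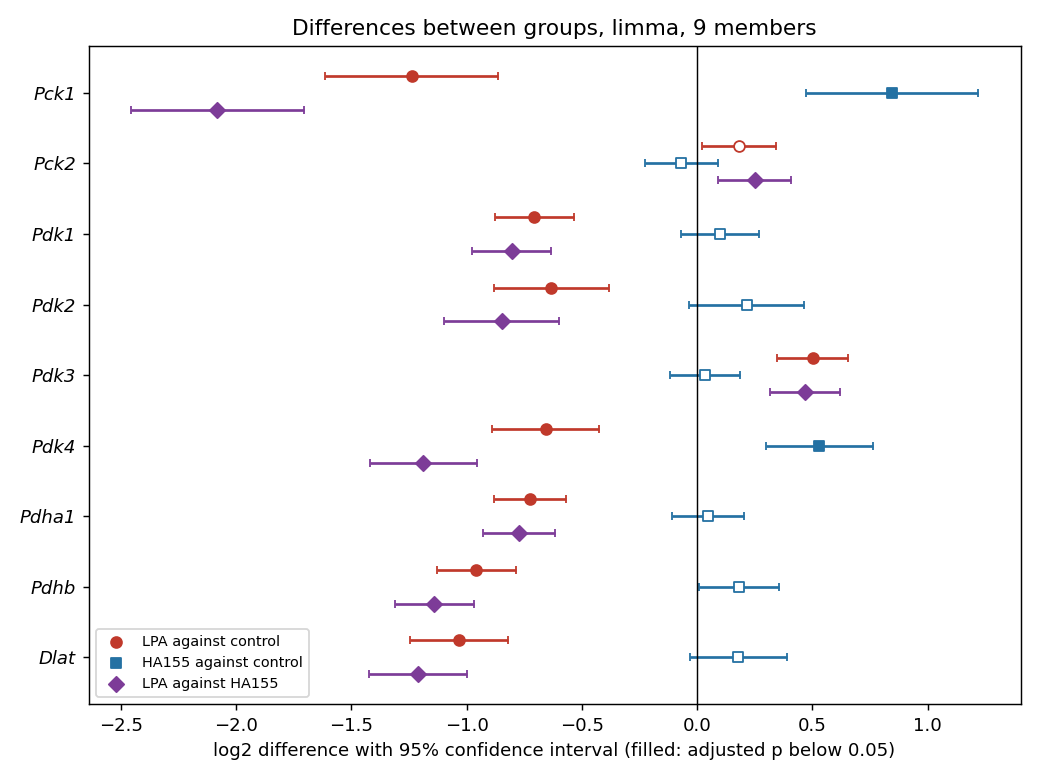
Log2 differences of the 9 genes with their 95% confidence intervals from limma for LPA against control (circles), HA155 against control (squares) and LPA against HA155 (diamonds), n = 3 arrays per group. Filled symbols passed at an adjusted p below 0.05. Circles lie left of 0 for all but Pck2 and Pdk3, and the filled squares are Pck1 and Pdk4.

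The 7 falls and the rise of Pdk3 with LPA passed in each of 17 other settings, 9 of which left out 1 array. Several of these settings could change only the p. The filter, the variance prior and the loss of an HA155 array leave these differences unchanged. So does the probe set rule, as each of the 9 genes had only 1 probe set. The HA155 calls were narrow. That of Pck1 was lost in 7 settings and that of Pdk4 in 8, among them the loss of any 1 control or HA155 array (adjusted p 0.135 to 0.199 for Pck1 and 0.098 to 0.203 for Pdk4) and the fit without the intensity filter (0.0801 and 0.0759). Over all 17 settings the limma adjusted p ran from 0.00175 to 0.199 for Pck1 and from 0.00244 to 0.203 for Pdk4. The differences themselves stayed between 0.77 and 0.92 for Pck1 and between 0.47 and 0.57 for Pdk4. In Pck1, Pck2, Pdk1 and Dlat a pair of control arrays held 1 identical value.

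**Figure D3:**
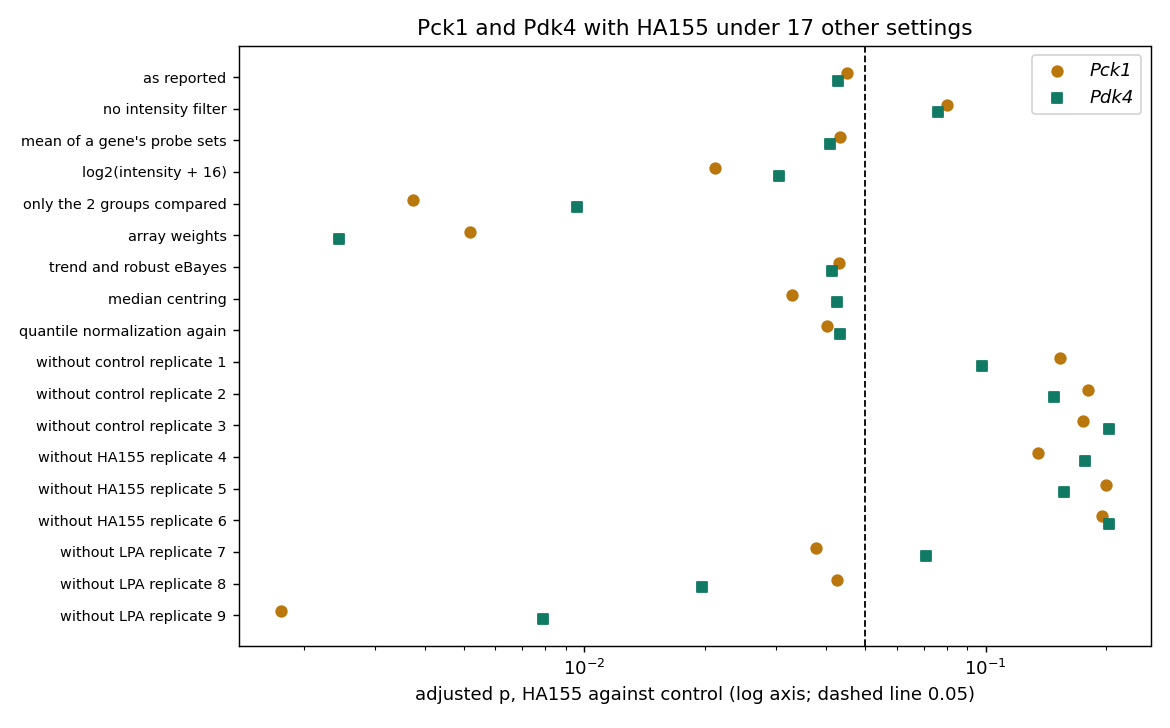
Adjusted p on a log axis for Pck1 (circles) and Pdk4 (squares), HA155 against control, as reported and under 17 other settings down the page, with a dashed line at 0.05. Both symbols lie right of the line without the intensity filter and without any 1 control or HA155 array, and Pdk4 also without LPA array 7, which enters only through the shared spread.

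The rest of the complex and its regulators came from a list of 10 genes, 9 of which were tested. With LPA 5 fell, 1 rose and 3 did not pass, with a list median of -0.44 against 0.01 over all genes. Among all genes 10.8% fell and 12.2% rose with LPA, 1.03% passed with HA155 and 26.1% passed between LPA and HA155. Mpc1, a subunit of the carrier that brings pyruvate into the mitochondrion, averaged 9.05 ± 0.06 with LPA against 10.06 ± 0.13 in control (log2, SD, n = 3 each) and fell by 1.01 (limma adjusted p = 7.12e-06). Dld, the dihydrolipoamide dehydrogenase of the complex, fell by 0.71 (limma adjusted p = 6.75e-05). Pdp1, the catalytic subunit of a phosphatase that reverses the kinases, averaged 9.10 ± 0.04 with LPA against 8.20 ± 0.16 in control and rose by 0.90 (limma adjusted p = 1.62e-05). With HA155, 1 of the 9 passed, Mpc1, which rose by 0.41 (limma adjusted p = 0.0393), a call lost in 9 of 17 other settings (adjusted p up to 0.203): without control array 1 or 2, HA155 array 4, 5 or 6 or LPA array 7 or 9, without the filter, and with only these groups in the fit. Between LPA and HA155, 6 were lower and 1 was higher with LPA, with Mpc1 at -1.41, Dld at -0.93 and Pdhx, which anchors Dld to the core, at -0.91.

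The list of glyceroneogenesis, pyruvate and lactate had 27 genes, 22 of them tested. With LPA 16 fell, none rose and 6 did not pass, with a median of -0.53 against 0.01 over all genes. The shares of all genes were 10.8% lower and 12.2% higher with LPA, 1.03% called with HA155 and 12.4% lower with LPA than with HA155. Gpd1, the cytosolic dehydrogenase that makes glycerol 3-phosphate, averaged 10.34 ± 0.15 with LPA against 12.20 ± 0.06 in control and fell by 1.85 (limma adjusted p = 1.93e-07). Pcx, pyruvate carboxylase, which makes the oxaloacetate that Pck1 uses, fell by 1.50 (limma adjusted p = 2.33e-07), and the glycerol channel gene Aqp7 fell by 1.52 (limma adjusted p = 5.22e-07). With HA155, 1 of the 22 passed. This was Gpd2, the mitochondrial glycerol 3-phosphate dehydrogenase, which rose by 0.34 (limma adjusted p = 0.0413) and lost its call in 8 of 17 other settings (adjusted p up to 0.203), without any 1 control or HA155 array, without LPA array 7 and without the filter. In the fit between LPA and HA155, 18 were lower with LPA, with Gpd1 at -1.88, Pcx at -1.57 and the malic enzyme Me1 at -1.45.

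Of 21 tested transcription factors and coactivators known to act on Pck1 or Pdk4, 8 fell and 2 rose with LPA, and the list median was -0.17 against 0.01 over all genes. Over all genes 10.8% fell and 12.2% rose with LPA, and 1.03% passed with HA155. Srebf1, a regulator of lipid synthesis genes, fell by 1.16 (limma adjusted p = 1.59e-06), Lpin1, a phosphatase and coactivator, by 1.12 (limma adjusted p = 4.17e-07), and the orphan receptor Nr4a1 rose by 1.50 (limma adjusted p = 4.82e-06). None of the 21 passed with HA155 in limma, where 2 of them, Ppara and Srebf1, had an unadjusted p below 0.05. Pparg and Ppara were singled out after their values were seen. Pparg, the master regulator of fat cell formation, fell by 0.46 with LPA (limma adjusted p = 0.000213) and measured 0.00 with HA155 (limma adjusted p = 0.997). Ppara measured -0.17 with LPA (limma adjusted p = 0.228) and 0.41 with HA155 (limma adjusted p = 0.0991), and it was lower with LPA than with HA155 by 0.58 (limma adjusted p = 0.000928). With LPA the general fat cell and brown fat markers that passed fell, and the preadipocyte markers that passed rose, as given above. The part of these markers in the falls with LPA and in the rises of Pck1 and Pdk4 with HA155 was not tested.

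**Figure D4:**
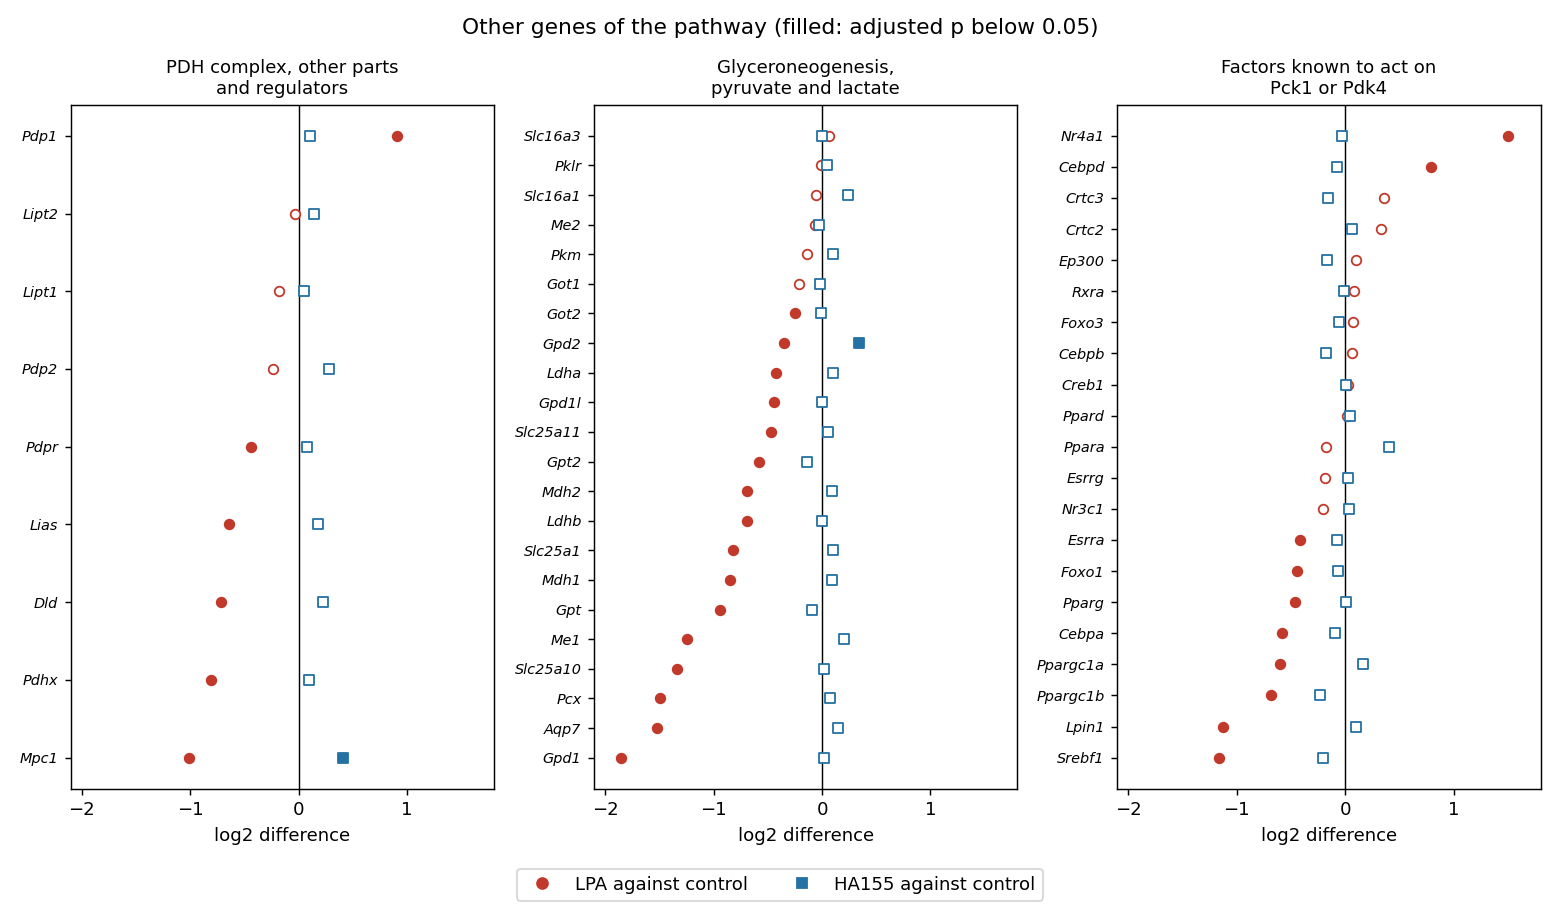
Log2 difference of each tested gene in 3 lists (1 panel each), ordered by the difference of LPA against control (circles), with HA155 against control as squares. Filled symbols passed at an adjusted p below 0.05. Pdp1, Cebpd and Nr4a1 are the filled circles right of 0, and Mpc1 and Gpd2 the filled squares.

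The genes whose pattern was most like that of a member were taken by the root mean square difference of log2 values over the 9 arrays, each gene centred on its own mean, among 13334 others. For Pck1 they were Lctl (0.21), Ddo (0.26), Acacb (0.29) and Sorl1 (0.30), where the median gene differed by 0.89. For Pdk4 they were Ehhadh, Acad11, Nudt7 and Mpp7 (0.11 to 0.12, median 0.51). For Pdhb they were Alas1, Acadm, Apmap and Hsd17b12 (0.06 to 0.07, median 0.52). With 1 array left out 2 to 4 of the 4 names were kept for Pck1, 0 to 4 for Pdk4 and 1 to 4 for Pdhb. The gene nearest to Pck1, Lctl, measured -1.08 with LPA and 1.13 with HA155, beside -1.24 and 0.84 for Pck1. Ehhadh, nearest to Pdk4, measured -0.76 and 0.47, beside -0.66 and 0.53 for Pdk4. These genes were picked for likeness over the same 9 arrays, so the match of their differences follows from the choice.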

How the data were processed

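Total RNA of 9 primary brown fat cultures was hybridised to Affymetrix mouse gene arrays. The authors deposited 1 intensity per probe set and array, by RMA according to the labels (per the submitters' processing notes; version not given in the sources used here), on a linear scale as the range of the values shows. RMA normalizes quantiles between arrays, which removes a global shift, and compresses changes of dim probes. Array medians ran from 70.7 to 72.8. Precision is limited by the number of arrays, and a difference had a median standard error of 0.08.

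Log2 of the deposited intensity was taken without offset. Of 35432 probe sets 21706 had 1 symbol in the platform annotation, 1605 had several and 12121 were not listed and are unnamed here. The brightest single-symbol probe set stood for a gene, and all 9 genes reported had only 1. Genes with a mean under the 40th percentile of probe sets (5.59 on the log2 scale) were left out, 6523 in all. Groups were compared with limma 3.58.1 in R 4.3.3 on all 9 arrays (6 residual degrees of freedom, two-sided, no covariate, Benjamini-Hochberg at 0.05). The labels name no batch, so batch and group cannot be told apart. Each group had 3 cultures, so the spread behind each p is that between cultures, which may be technical. The most alike pair of arrays shared 2649 identical values, and no pair was identical throughout. The median SD per gene was 0.11 with LPA, 0.05 with HA155 and 0.07 in control, and 1 shared spread was fitted.

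On simulated data (200 of 13335 genes changed for LPA against control, 5 runs) the fit recovered 75.6% of changes of 0.5 and 98.8% of changes of 1, with 5.73% of calls false. Each simulated gene had the same spread in every group, and fewer genes were changed than were called in the data. These shares therefore do not describe the HA155 calls. The members and lists were chosen with earlier results of these data known. Named genes were the members, up to 3 genes of smallest p per list and comparison, and the 4 most like Pck1, Pdk4 and Pdhb. No single-symbol probe set was found for Mpc2 and Gyk of the pathway lists or for the markers Cfd (fat cell), Ly6a (preadipocyte) and Slc34a1 (liver and kidney). The marker counts given leave these out. Promoter windows came from RefSeq (GRCm38.p6), and all 9 genes matched. The alternatives were the filter, the probe set rule, an offset of 16, the samples in the fit, array weights, the variance prior, 2 scalings and each array left out.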

Additional observations from a re-analysis of the deposited data

How the results depend on the processing

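With LPA against control the 7 members that fell did so in all 17 alternatives, and the number that rose was 1 to 2 with 1 array left out (2 without LPA array 8). The genes higher and lower over the whole array, 1621 and 1445, stayed within 1.5 times in all 17, at 1135 to 1792 and 1158 to 1621 with 1 array left out. With HA155 against control the members that rose numbered 2, and 0 without the intensity filter, where more genes were tested; they numbered 0 to 2 with 1 array left out. The genes called there, 81 higher and 57 lower, were 51 and 35 without the filter, 199 and 139 with array weights, and 27 to 137 and 12 to 95 with 1 array left out, where the loss of any array but LPA 9 moved one of the counts by over 1.5 times. Between LPA and HA155 the members higher with LPA numbered 2, but 1 with only the 2 groups compared, 1 with median centring and 1 to 2 with 1 array left out, Pck2 being the one lost; the 7 lower held throughout. Pdk3 with HA155 turned to -0.003 without HA155 array 6 (-0.003 to 0.058 with 1 array left out), neither passing. The change of the Pdk4 to Pdk1 ratio with LPA turned to -0.04 without LPA array 9 (-0.04 to 0.171 with 1 array left out). That of Pdk4 to Pdk2 (-0.02) turned to 0.022 with the offset, 0.081 with array weights, 0.014 and 0.001 without control 1 and 2, and 0.232 without LPA array 8 (-0.223 to 0.232 with 1 array left out); the cause was not tested. The list counts, ratios and like genes were added after the data were seen. No paired analysis was possible because the subject numbers differ between the groups. Signal near the filter level limits Pck1 with LPA.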

Other observations

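Pck2 is known as a target of the stress factor ATF4, and Pdk1 as a target of the hypoxia factor HIF1, so a list was kept for each. Of 14 genes of the ATF4 list 4 fell and 1 rose with LPA (median -0.16 against 0.01 over all genes), and none passed with HA155 in limma, where 1, Phgdh, had an unadjusted p below 0.05. Among all genes 10.8% fell and 12.2% rose with LPA, and 1.03% passed with HA155. The serine synthesis genes Phgdh and Psph fell by 0.39 and 0.34 with LPA (limma adjusted p = 0.00133 and 0.00228), and the folate enzyme gene Mthfd2 fell by 0.31 (limma adjusted p = 0.0068). Between LPA and HA155, Psph and Atf3 were lower with LPA (-0.31 and -0.29) and Trib3 was higher (0.25); Atf3 and Trib3 lost this call in 6 and 7 of 17 alternatives, among them the loss of HA155 array 4 or 6 or LPA array 8 or 9.

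Of 12 tested genes of the HIF1 list 5 rose and 4 fell with LPA, with a median of 0.03, where 12.2% of all genes rose and 10.8% fell. With HA155 1.03% of all genes passed. Pfkfb3, which makes an activator of glycolysis, averaged 8.60 ± 0.04 with LPA against 10.02 ± 0.03 in control (log2, SD, n = 3 each) and fell by 1.42 (limma adjusted p = 1.93e-07). Bnip3, a mitophagy receptor, fell by 0.83 (limma adjusted p = 1.41e-05). Adm, the vasodilator adrenomedullin, rose by 0.58 with LPA (limma adjusted p = 8.84e-05) and was the 1 gene of the list that passed with HA155, where it fell by 0.63 (limma adjusted p = 0.00136). The 3 genes differed between LPA and HA155 as well, by -1.36 for Pfkfb3, -1.07 for Bnip3 and 1.21 for Adm.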
